A study of Mus musculus with 21 samples.

Results

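The genes described here are 31 genes of the visceral and primitive endoderm, chosen by name as a module out of the 33861 genes of the count table. They were chosen with earlier results of these data known. Each of the 31 was found as 1 row. They were divided by role into 4 genes of the uptake machinery (Cubn, Amn, Lrp2, Dab2), 10 genes of lipoproteins and their lipid loading (Apob, Apoe, Apoa1, Apoa2, Apoa4, Apoc1, Apoc2, Apom, Mttp, Soat2), 7 secreted plasma proteins (Ttr, Afp, Rbp4, Trf, Fga, Fgb, Fgg), 6 endoderm transcription factors (Gata4, Gata6, Sox7, Sox17, Hnf4a, Foxa1) and 4 signalling or other genes (Pdgfra, Ihh, Cited1, Srgn). The first 21 are called transport genes below.

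RNA was sequenced from 21 mouse samples. Formative stem (FS) cells, pluripotent cells that correspond to the epiblast shortly after implantation, were grown in the medium labelled A3XR and came from 2 lines, line 1 sampled at its passages 10, 11 and 18, and the second (line 2) at 12, 13 and 16. Epiblast stem cells (EpiSCs), which are later-stage pluripotent cells and here carry the E14 name, were grown in the media labelled AF or AFX, each at passages 14, 15 and 16. Single epiblasts were taken from 3 embryos each at E5.0 (embryos 1, 2 and 4), E5.5 and E6.0. Another field of the labels gives the E6.0 embryos a later stage, and the title is followed here. Passages of a line are not independent derivations, so p-values between cultures measure the spread between passages and, for FS, between 2 lines, and any comparison of FS with AF or AFX also compares different lines. The labels name no sex, strain or genotype of the embryos and no derivation of the AF and AFX cells.

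The primitive endoderm arises beside the epiblast in the blastocyst under GATA6, GATA4, SOX7 and SOX17. Its descendant, the visceral endoderm, wraps the epiblast after implantation, takes up maternal protein through cubilin, amnionless and megalin, and secretes apolipoproteins, transthyretin and alpha-fetoprotein under HNF4A. Several of the same transcription factors are used again in definitive endoderm.

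Totals per sample ran from 5827093 to 15916800 counts, and 3 counts, the floor used here for detection, corresponded to 0.171 to 0.589 CPM (counts scaled to library size, here by TMM over all samples). Epiblast identity was checked on 10 epiblast markers, all of which were measured. Their summed level was 4180 to 4332 CPM at E5.0, 5248 to 5770 at E5.5 and 5773 to 7169 at E6.0, and Pou5f1, a core pluripotency factor, stood between 553.1 and 717.9 CPM in every epiblast. Cultured samples had sums from 1309 to 2974 CPM.

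Windows of 250 bases before to 50 bases after the start site were taken from RefSeq (GRCm38.p6) for the 23 of 31 members that matched. Where a member had more than 1 start site, among them Hnf4a, Dab2 and Apoa2, only the one farthest upstream was used. The Apoa2 window (chr1:171221314-171221613) lies wholly upstream of the gene start in GENCODE (chr1:171225054). They were searched on both strands for short cores of factor families. The cores given here are AGATAA for the GATA factors and, for FOXA, either TGTTTAC or the variant TATTTAC. Also given are AGTCCA for HNF4 and, for the SOX family, the letters AACAAT. The letters AGTCCA occurred in 14.1% of all 32851 windows and in 5 of the 23 (Apoa1, Apoa2, Cubn, Foxa1, Hnf4a) and AGATAA in 11.2% and in 2 (Dab2, Hnf4a). TGTTTAC was in 3.65% of all windows and in 2 members (Foxa1, Rbp4), TATTTAC in 3.04% and in 3 (Fgb, Mttp, Pdgfra), and AACAAT in 10.7% and in 0 of the 23. With so few windows these are descriptions of letters, not of binding. The 6 windows below belong to a receptor pair, 2 apolipoproteins, an endocytic adaptor and the factor HNF4A, all of which moved with stage in the epiblasts. Capitals mark AGTCCA or AGATAA or their reverse complements, TGGACT and TTATCT. The windows lie at chr2:13491827-13492126 (minus strand, Cubn), chr12:111270846-111271145 (plus, Amn), chr12:7977427-7977726 (plus, Apob), chr9:46228380-46228679 (plus, Apoa1), chr15:6299539-6299838 (plus, Dab2) and chr2:163506607-163506906 (plus, Hnf4a).
Cubn: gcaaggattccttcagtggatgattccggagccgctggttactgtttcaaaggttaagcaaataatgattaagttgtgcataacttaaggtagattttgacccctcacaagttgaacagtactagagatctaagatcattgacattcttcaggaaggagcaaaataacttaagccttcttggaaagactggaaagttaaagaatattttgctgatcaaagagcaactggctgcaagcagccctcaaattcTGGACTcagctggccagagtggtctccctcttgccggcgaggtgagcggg
Amn: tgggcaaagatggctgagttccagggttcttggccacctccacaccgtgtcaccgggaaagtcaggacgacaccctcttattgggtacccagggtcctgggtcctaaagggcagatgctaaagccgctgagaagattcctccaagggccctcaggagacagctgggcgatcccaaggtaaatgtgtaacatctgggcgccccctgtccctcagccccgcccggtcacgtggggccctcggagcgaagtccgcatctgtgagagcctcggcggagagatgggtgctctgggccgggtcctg
Apob: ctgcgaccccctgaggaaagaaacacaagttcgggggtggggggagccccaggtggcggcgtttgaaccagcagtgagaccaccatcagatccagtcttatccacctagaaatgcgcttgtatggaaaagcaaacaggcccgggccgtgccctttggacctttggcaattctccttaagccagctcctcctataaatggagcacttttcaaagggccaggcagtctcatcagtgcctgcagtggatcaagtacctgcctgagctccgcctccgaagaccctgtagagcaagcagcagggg
Apoa1: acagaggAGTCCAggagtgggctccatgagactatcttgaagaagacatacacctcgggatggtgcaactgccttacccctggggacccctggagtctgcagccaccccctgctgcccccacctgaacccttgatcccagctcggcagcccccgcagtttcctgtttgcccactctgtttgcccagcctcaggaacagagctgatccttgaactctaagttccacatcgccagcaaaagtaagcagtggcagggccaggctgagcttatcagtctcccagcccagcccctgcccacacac
Dab2: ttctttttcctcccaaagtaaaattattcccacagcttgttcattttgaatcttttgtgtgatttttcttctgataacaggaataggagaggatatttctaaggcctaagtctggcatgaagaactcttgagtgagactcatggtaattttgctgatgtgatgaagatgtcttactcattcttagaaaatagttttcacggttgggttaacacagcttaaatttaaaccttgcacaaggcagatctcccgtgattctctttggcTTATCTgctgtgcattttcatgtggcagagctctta
Hnf4a: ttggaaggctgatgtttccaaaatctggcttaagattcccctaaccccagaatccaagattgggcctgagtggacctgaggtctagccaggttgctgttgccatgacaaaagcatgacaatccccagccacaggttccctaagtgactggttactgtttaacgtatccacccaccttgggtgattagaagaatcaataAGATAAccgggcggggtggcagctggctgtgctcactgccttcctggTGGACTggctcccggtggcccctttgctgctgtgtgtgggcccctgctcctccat
In Cubn the reverse complement of AGTCCA begins at the start site itself, and in Hnf4a an AGATAA begins 52 bases before it and a reversed AGTCCA 5 bases before it. In Apoa1 the match lies 243 bases before the start site, and in Dab2 a reversed AGATAA begins 14 bases after it. Amn and Apob hold neither AGTCCA nor AGATAA in this window, which says nothing of other positions.

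Most members that could be tested fell as the epiblasts advanced in stage. Between E5.0 and E6.0, 18 of the 21 members that could be tested fell and 0 rose (edgeR quasi-likelihood test, adjusted p under 0.05), where 21.8% of all 14228 genes tested were called, 10.2% higher and 11.6% lower. Of the 21, 8 (Apoa4, Apom, Soat2, Ttr, Gata6, Sox7, Foxa1 and Srgn) passed the filter on low counts only through their highest stage, so that a difference was built into their selection. Among the other 13, 12 fell. Because the members were chosen with earlier results of these data known, these counts beside the share of all genes are a description only. Without E5.0 embryo 2, 17 fell and Foxa1 was called higher. The median log2 change of the 21 members was -4.11 (-3.79 with bounds in place of fitted values for 5 of them), against -0.02 for all genes. RNA from fewer endoderm cells and less RNA per cell cannot be told apart in these bulk samples.

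All 4 uptake genes fell from E5.0 to E6.0, and Cubn had the steepest fitted fall of the module that is not a bound. Cubn (chr2:13276338-13491813), the receptor cubilin, was at 349.5, 628.6 and 149.6 CPM in E5.0 embryos 1, 2 and 4, at 26.5, 12.2 and 3.73 in the E5.5 embryos and at 1.05, 1.39 and 1.49 in the E6.0 embryos. The 3 stages did not overlap. Its log2 change was -4.76 ± 0.84 (SE, n = 3 embryos per stage, adjusted p = 0.0271, edgeR) from E5.0 to E5.5 and -8.15 ± 1.07 (adjusted p = 0.00300) from E5.0 to E6.0. Amn (chr12:111271095-111276426) encodes amnionless, the membrane partner of cubilin, and stood at 10.4, 13.7 and 7.07 CPM at E5.0, 2.15, 1.72 and 2.43 at E5.5, and 0.657, 0 and 0.426 at E6.0. These groups too were separate at each step, and Amn fell by 4.92 ± 0.73 on the log2 scale from E5.0 to E6.0 (adjusted p = 0.000338).

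Lrp2 and Dab2 followed with smaller changes and kept a level at E6.0. Lrp2 (chr2:69424340-69586065) encodes megalin, the large endocytic receptor that works with cubilin, and was at 963.2, 1108 and 515.7 CPM at E5.0, 368.0, 354.2 and 400.3 at E5.5, and 319.2, 269.5 and 323.7 at E6.0. It fell by 1.52 ± 0.25 on the log2 scale between E5.0 and E6.0 (adjusted p = 0.00349). Dab2 (chr15:6299788-6440712), a clathrin adaptor for these receptors, dropped between the first stages, from 104.8, 118.5 and 67.2 CPM to 23.8, 25.2 and 19.5, and then stood at 26.0, 20.3 and 21.2 at E6.0. Its log2 change was -2.10 ± 0.21 from E5.0 to E5.5 (adjusted p = 0.000243) and -0.03 ± 0.21 from E5.5 to E6.0 (adjusted p = 0.970).

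**Figure D1:**
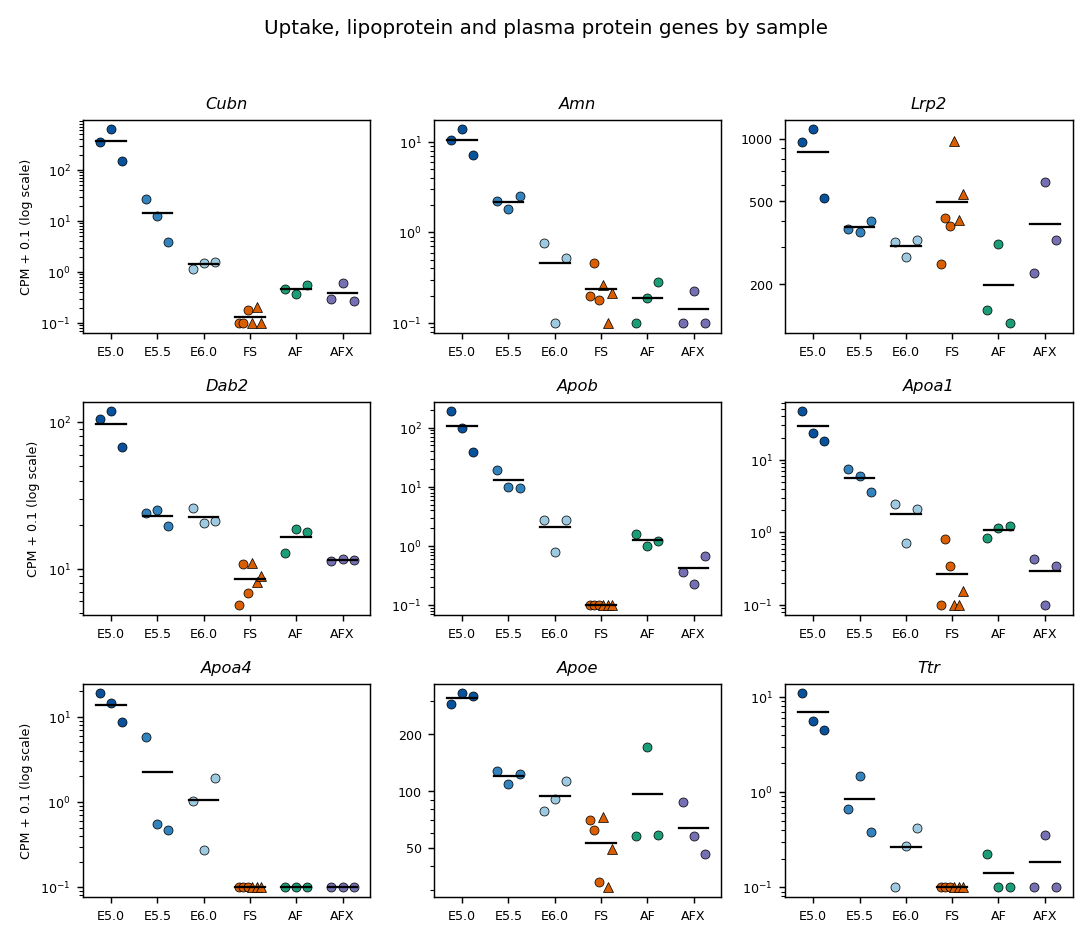
CPM plus 0.1 on a log scale for 9 transport genes in each sample, with epiblast stages on the left and FS, AF and AFX cultures on the right. Each point is 1 sample, triangles are FS line 2, and bars are group means. Cubn runs from 149.6 to 628.6 CPM at E5.0 and from 1.05 to 1.49 at E6.0, while Lrp2 and Apoe stay above 30 CPM in all 21 samples.

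The 8 lipoprotein genes that could be tested, of 10, fell between E5.0 and E6.0, though Apoa4, Apom and Soat2 passed the filter only through E5.0. Apob (chr12:7977648-8016835), the structural protein of very low density lipoprotein, was at 188.7, 98.5 and 38.6 CPM at E5.0, 19.4, 9.63 and 9.61 at E5.5, and 2.63, 0.692 and 2.66 at E6.0, with no overlap between stages. It fell by 5.83 ± 0.81 on the log2 scale from E5.0 to E6.0 (adjusted p = 0.00226). Apoa1, the main protein of high density lipoprotein, was at 46.2, 23.2 and 18.2 CPM, then 7.34, 5.96 and 3.45, then 2.36, 0.606 and 2.02, a change of -4.18 ± 0.52 from first to last stage (adjusted p = 9.65e-05). Apoa4, which lies 10.2 kb from Apoa1 on chromosome 9, was at 18.8, 14.3 and 8.51 CPM at E5.0, and 5.65, 0.459 and 0.373 at E5.5. E5.5 embryo 1 was thus the high one, and the step from E5.0 to E5.5 did not pass the test (-2.70 ± 0.98, adjusted p = 0.138). At E6.0 it was at 0.919, 0.173 and 1.81 CPM, a fall of 3.87 ± 1.06 from E5.0 (adjusted p = 0.0274) that was not called without E5.0 embryo 1 or 2 or E6.0 embryo 1 or 2.

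Apoe (chr7:19696109-19699188), a ligand for lipoprotein receptors, fell with little spread between embryos. Its level was 291.0, 329.4 and 318.1 CPM at E5.0, 127.6, 108.4 and 122.8 at E5.5 and 78.8, 91.2 and 113.5 at E6.0, and it fell by 1.40 ± 0.13 and 1.74 ± 0.13 on the log2 scale against E5.0 (adjusted p = 0.000161 and 1.56e-06). Apoc1, 3.45 kb from Apoe on chromosome 7, was at 12.8, 20.2 and 16.6 CPM at E5.0, 6.10, 6.08 and 12.6 at E5.5 and 4.20, 4.07 and 3.41 at E6.0. Only its change over the whole interval passed the test (-2.10 ± 0.36, adjusted p = 0.000985). E5.5 embryo 3 lay just below the lowest E5.0 embryo.

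The genes that load lipid onto these particles also fell. Mttp, the microsomal triglyceride transfer protein, went from 25.0, 16.3 and 12.4 CPM at E5.0 to 4.46, 4.50 and 6.71 at E6.0 (-1.79 ± 0.35, adjusted p = 0.00237). It is overlapped on the other strand by Trmt10a, which held 5363 counts over all samples, and without a stated strand setting reads of the 2 cannot be told apart. Soat2, which esterifies cholesterol, was at 7.2, 4.32 and 1.92 CPM at E5.0 and 2.71, 1.49 and 0.933 at E5.5, and at E6.0 1 count was found in 3 embryos. It was at least 13.8-fold lower at E6.0 than at E5.0 and at least 5.28-fold lower than at E5.5, with the floor at 3 counts per sample. Apom, an apolipoprotein of high density lipoprotein, was at 5.46, 4.32 and 2.88 CPM at E5.0 and at least 13-fold lower at E6.0, a call lost without E6.0 embryo 2. Apoa2 had 11 counts, all in E5.0 embryo 1, and Apoc2 had 2 counts in the same embryo, so neither was tested.

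Among the plasma proteins Ttr alone was tested in the epiblasts. Ttr, the carrier of thyroid hormone and retinol-binding protein, was at 10.8, 5.49 and 4.44 CPM at E5.0, 0.565, 1.38 and 0.280 at E5.5 and 0, 0.173 and 0.319 at E6.0. It was at least 21.3-fold lower at E6.0 than at E5.0 (adjusted p = 0.000943), a difference built into its selection because it passed the filter only through E5.0. Afp, alpha-fetoprotein, had 15 counts at most in any epiblast, with 1.86, 1.37 and 0 CPM at E5.0, and so stayed near the floor even where Cubn and Apob were high. Rbp4, which carries retinol in plasma, was at 0.497, 0 and 0.959 CPM at E5.0 and 0.788, 1.39 and 1.38 at E6.0. The iron carrier Trf had 9 counts over the E5.0 epiblasts and 2 over the E5.5 epiblasts, the fibrinogen chains Fgb and Fgg had 5 and 15 over all epiblasts, and Fga had 0 in all 21 samples.

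**Figure D2:**
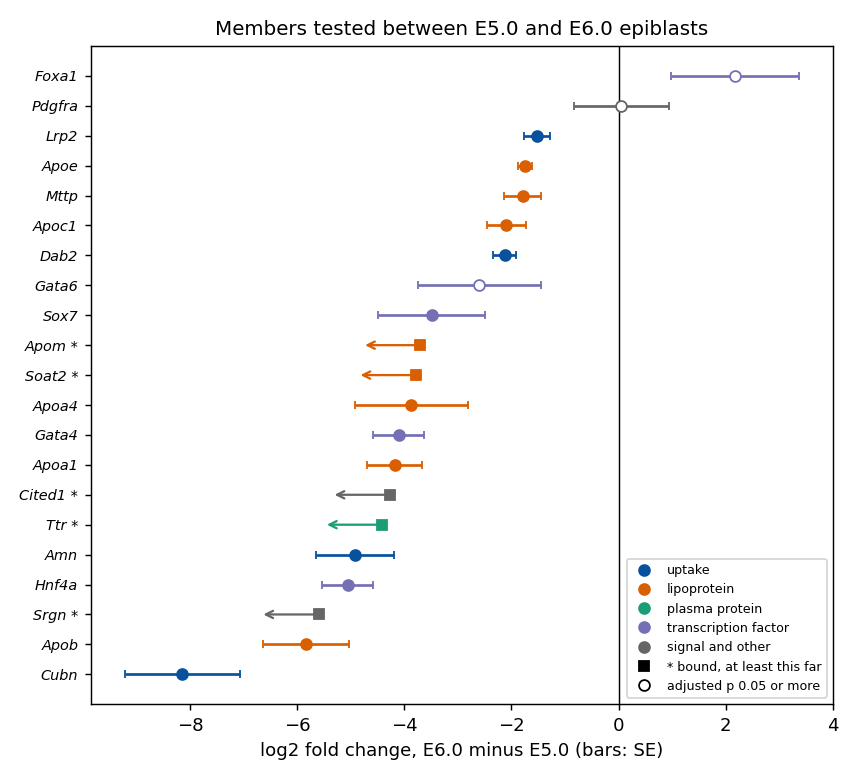
Log2 fold change from E5.0 to E6.0 for the 21 members tested, coloured by role. Circles with bars are fitted values with SE, squares with arrows are bounds against 3 counts per sample, and open symbols did not pass the test. The fitted changes of Cubn (-8.15) and Apob (-5.83) lie farthest left and those of Lrp2 (-1.52) and Apoe (-1.74) nearest 0 among the called genes.

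Of the 5 endoderm transcription factors tested, Hnf4a, Gata4 and Sox7 fell between E5.0 and E6.0, and Gata6 and Foxa1 did not pass the test. Sox7 passed the filter only through E5.0, so that its difference was built into its selection. Hnf4a (chr2:163506808-163572910), the nuclear receptor that drives visceral endoderm secretion, was at 12.17, 11.97 and 11.99 CPM at E5.0, 2.60, 2.98 and 2.52 at E5.5 and 0.263, 0.260 and 0.532 at E6.0. The embryos of a stage lay close together and the stages far apart, and both steps passed the test (-2.17 ± 0.39, adjusted p = 0.00610, and -2.89 ± 0.48, adjusted p = 0.00331). Gata4 was at 9.81, 11.2 and 17.0 CPM at E5.0, 1.47, 2.06 and 2.98 at E5.5 and 0.788, 0.866 and 0.532 at E6.0 (-4.11 ± 0.48 over the interval, adjusted p = 5.01e-05). Sox7 stood at 2.24, 1.96 and 6.83 CPM at E5.0 and 0.525, 0.346 and 0.107 at E6.0 (-3.49 ± 1.00, adjusted p = 0.0229), and its call was lost without E5.0 embryo 4 or any 1 of the E6.0 embryos.

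Gata6, Sox17 and Foxa1 were low at every epiblast stage. Gata6, an early factor of the primitive endoderm, was at 1.61, 2.94 and 3.96 CPM at E5.0 and 0, 1.30 and 0 at E6.0, a log2 difference of -2.60 ± 1.16 that did not pass the test (adjusted p = 0.127), although the 2 stages did not overlap. It was called lower without E6.0 embryo 2. Foxa1, a pioneer factor of gut endoderm, was at 0, 1.37 and 0 CPM at E5.0 and 1.84, 2.51 and 1.17 at E6.0 (2.17 ± 1.20, adjusted p = 0.221), and it was called higher without E5.0 embryo 2, the 1 in which it was found at E5.0. Sox17 did not pass the filter, with 2.55 CPM at most. Within E5.0, embryo 4 had the lowest Cubn, Amn, Lrp2, Dab2, Apob and Apoa1 and the highest Gata4, Gata6 and Sox7, while Hnf4a was even. Sox17 and Foxa1 were at 0 in embryo 4, Pdgfra was lowest there at 0.120 CPM, and Apoe and Apoc1 were lowest in embryo 1.

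**Figure D3:**
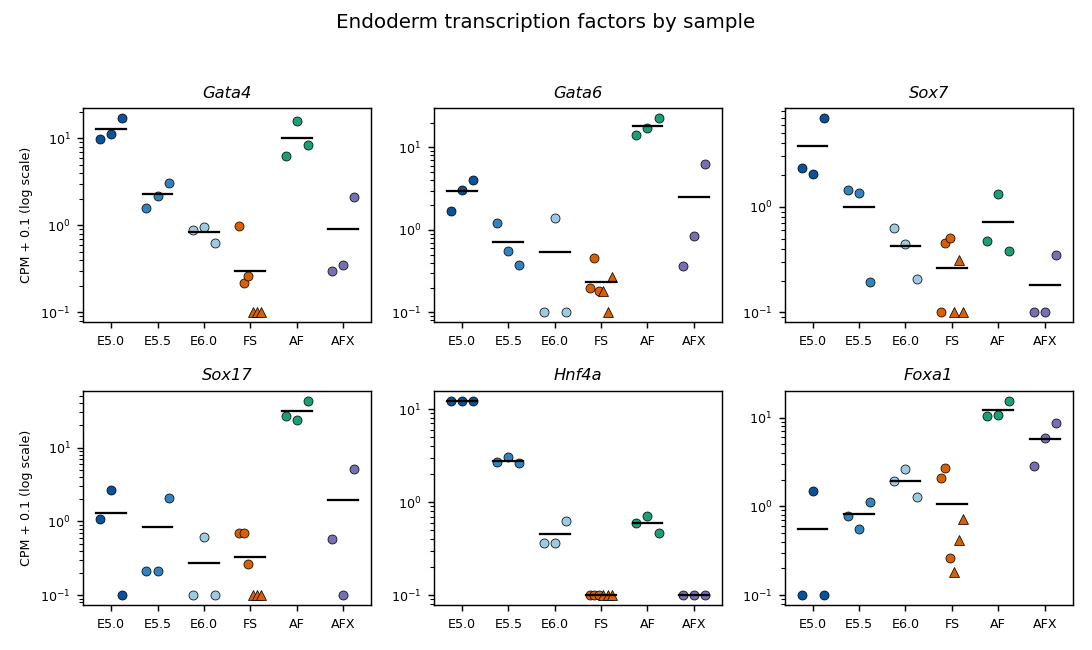
CPM plus 0.1 on a log scale for the 6 endoderm transcription factors in each sample, with points, triangles and bars as for the transport genes. Hnf4a falls in 2 steps, from 11.97 to 12.17 CPM at E5.0 down to 0.260 to 0.532 at E6.0, in the epiblasts, and Sox17 and Gata6 are highest in the AF cultures.

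Of the other 4 members, Srgn, Cited1 and Ihh were highest at E5.0 among the epiblasts. Srgn, the core protein of an intracellular proteoglycan, was at 24.5, 12.8 and 9.95 CPM at E5.0, 1.92, 1.03 and 0.746 at E5.5 and 0 in all 3 embryos at E6.0, where it was at least 48.5-fold lower than at E5.0. Cited1, a transcriptional coregulator, was at 7.2, 6.67 and 4.92 CPM at E5.0, 2.49, 1.61 and 2.33 at E5.5 and 0.131, 0.087 and 0.213 at E6.0, which is at least 19.3-fold lower than at E5.0. Ihh, the hedgehog ligand of the visceral endoderm, was at 2.11, 1.37 and 0.839 CPM at E5.0 and at 0 in all 3 E5.5 embryos, but did not pass the filter. Pdgfra, the receptor that marks early primitive endoderm, was at 3.85, 5.30 and 0.120 CPM at E5.0 and 1.05, 5.80 and 2.66 at E6.0, and these ranges overlapped (0.05 ± 0.88, adjusted p = 0.975).

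More members passed the test in the first step than in the second. From E5.0 to E5.5, 13 of 21 members fell and 0 rose, against 6.82% of all genes called (3.07% higher, 3.75% lower), with a median of -2.17. From E5.5 to E6.0, 4 fell (Soat2, Hnf4a, Cited1, Srgn) and 0 rose, against 4.43% called (1.89% higher, 2.54% lower), with a median of -1.44 (-1.19 with bounds). Of the 13 members that did not pass the filter through their highest stage alone, 10 fell in the first step and 2 in the second. Leaving out single embryos left 8 to 12 members called in the first step and 3 or 4 in the second. In the first step Cubn lost its call without E5.5 embryo 2, Lrp2 without E5.0 embryo 1 or any 1 E5.5 embryo, and Amn without E5.0 embryo 1 or 2 or any 1 E5.5 embryo. Apob lost it without E5.0 embryo 2 or any 1 E5.5 embryo, Mttp and Ttr without E5.0 embryo 1 or E5.5 embryo 1 or 3, and Apom without any 1 of the E5.0 embryos or E5.5 embryo 2 or 3. With only these 2 stages in the fit, Cubn, Lrp2, Apob and Apom were not called, and with no filter on low counts Apob was not. In the second step Soat2 lost it without E5.5 embryo 1 or E6.0 embryo 1 or 2. Other settings added lower calls in the second step. Apob and Apoa1 were called with the DESeq2 Wald test, with only the 2 stages in the fit and with a replicate block. Cubn was called with the DESeq2 Wald test and with only the 2 stages. Amn was called with the DESeq2 Wald test, and Amn and Apoa1 with no filter on low counts. With only the 2 stages in the fit, 9 members were called in the first step and 5 in the second. The 2 steps share the E5.5 embryos, and the difference between them was not tested. The sum over the 19 transport genes other than Lrp2 and Apoe was 784.0, 949.8 and 328.5 CPM at E5.0, 100.5, 74.9 and 60.0 at E5.5 and 43.9, 33.5 and 42.9 at E6.0. Lrp2 and Apoe together made 60.2% to 71.7% of the transport CPM at E5.0 and 90.1% to 91.5% at E6.0.

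Genes of related programmes gave these counts over the same interval, E5.0 to E6.0. Of 18 other extraembryonic endoderm genes 13 were tested, 7 fell and 1 rose (median -1.81). Amot, an angiomotin of the visceral endoderm, was at 391.2 to 447.9 CPM at E5.0 and 74.0 to 108.5 at E6.0. Of 18 other genes of lipoprotein and sterol transport 13 were tested, 4 fell and 1 rose (median -0.62). Parietal endoderm genes fell in 5 of 8 tested (median -1.11) and anterior visceral endoderm genes in 1 of 5 (median 0.21). Genes of extraembryonic ectoderm were called in 0 of 5 (median -1.22), although E5.0 embryo 2 carried 7.85 CPM of Elf5 and 7.26 CPM of Hand1. The decidua and maternal blood list was called in 0 of 2, summed to 4.91 to 8.63 CPM at E5.0 and 6.57 to 9.002 at E6.0, and held the haemoglobin gene Hba-a1 at 0 to 6.12 and 0 to 0.106 CPM. The feeder list fell in 1 of 5. Of the 10 epiblast markers 3 fell and 2 rose, and of 6 tested streak and definitive endoderm genes 1 rose. The summed level of the other extraembryonic endoderm list was 775.8 to 830.4 CPM at E5.0 and 446.8 to 499.8 at E6.0, a sum to which Emb gave 202.5 to 291.0 and 323.8 to 360.0. Without Emb the sum was 529.0 to 573.3 CPM at E5.0 and 117.8 to 165.4 at E6.0. Most of that sum was Amot alone, at 391.2 to 447.9 CPM and 74.0 to 108.5, so its fall is largely that of 1 gene. In the AF cultures Amot was at 536.2 to 811.8 CPM. Parietal endoderm genes summed to 517.3 to 820.3 CPM at E5.0 and 305.5 to 319.7 at E6.0, and the part of such cells in the falls given above was not tested.

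Per kilobase of exon, a scale on which genes can be compared, Apoe came first in the E5.0 epiblasts at 146.3 CPM per kb and Lrp2 second at 51.6. Cubn (25.2), Apoa1 (23.6) and Apoc1 (22.2) followed close together, and then Dab2 (13.2), Apob (7.79) and Apoa4 (7.64). Cubn alone ran from 149.6 to 628.6 CPM over the 3 embryos, so the neighbours Cubn, Apoa1 and Apoc1 did not differ beyond their spread. At E6.0 the order was Apoe (44.2), Lrp2 (18.2), Apoc1 (5.23), Dab2 (3.07) and Apoa1 (1.35).

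Few members were above the floor in every FS sample. There 10 of the 31 members had no count in any of the 6 samples, 15 (these 10 included) had at most 3 counts in every sample, and 6 had more than 3 in each of them. The 6 were Lrp2, Dab2, Apoe, Mttp, Rbp4 and Pdgfra. Lrp2 ranged from 248.6 to 968.6 CPM in FS (median 409.9), Apoe from 30.9 to 72.9 (median 55.7), Mttp from 7.38 to 11.1 (median 8.99), Dab2 from 5.56 to 10.9 (median 8.42) and Rbp4 from 0.695 to 2.53 (median 2.01). Lrp2 and Apoe made 94.4% to 97.8% of the transport CPM in FS, and Lrp2 led the order per kilobase (29.5 CPM per kb, against 24.8 for Apoe, values whose sample ranges are wide). In AF cells 15 of the 31 members had more than 3 counts in every sample, and in AFX cells 8. These groups hold 3 samples each, and FS line 1 and line 2 taken singly, also with 3 samples, had 7 each.

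Against the epiblasts of each stage, more members were lower in FS cells than higher. Of the 14 transport genes tested, 12 were lower than at E5.0, 10 lower than at E5.5 and 7 lower than at E6.0, with 1 higher each time. Of 23 members tested 17 were lower in FS than at E5.0 and 1, Rbp4, was higher, where 51.8% of all 16614 genes were called, 27.1% higher and 24.8% lower. Apoa4, Apom, Soat2, Ttr and Srgn passed the filter only through E5.0, so that a difference from E5.0 was built into their selection, and of the other 18 members 12 were lower. Against E5.5 the counts were 14 lower and 1 higher (43.8% called, 23.0% higher, 20.8% lower), and against E6.0 8 lower and 2 higher, Mttp and Cited1 (38.9% called, 20.1% higher, 18.9% lower). These 3 comparisons share the FS samples. Cubn, with 2 counts over 6 FS samples, was at least 1390-fold lower than at E5.0 (at least 922-fold without E5.0 embryo 2) and at least 4.83-fold lower than at E6.0, where the call was lost with either FS line alone. Apob had no count in FS and was at least 401-fold lower than at E5.0 (at least 253-fold without E5.0 embryo 1) and at least 7.36-fold lower than at E6.0. Hnf4a had no count in FS or AFX and was at least 44.5-fold lower in FS than at E5.0.

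Not every member was lower in FS. Lrp2 did not pass the test against E5.0 (-0.81 ± 0.39, adjusted p = 0.0955, though called lower with FS line 1 alone and without FS line 2 passage 12) or against E6.0 (0.70 ± 0.41, adjusted p = 0.194). Mttp was lower than at E5.0 (-0.98 ± 0.24, adjusted p = 0.00166) and higher than at E6.0 (0.79 ± 0.26, adjusted p = 0.0205), with its antisense overlap as above, and the latter call was lost without E6.0 embryo 1 or 2, with FS line 2 alone and with no filter on low counts. Rbp4 was higher than at E5.0 (1.81 ± 0.72, adjusted p = 0.0403), a call lost in 9 of 15 alternative settings, among them without FS line 1 passage 18, any 1 passage of line 2, or E5.0 embryo 1 or 2. Epiblasts are single embryos and cultures are 1000 cells each, so these differences also hold the difference in material.

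The members that passed the test between FS and AF cultures were 4 transcription factors and the adaptor Dab2. Against AF, FS cells were lower in 5 of 12 members tested (Dab2, Gata4, Gata6, Sox17, Foxa1) and higher in 0, where 19.5% of all 16052 genes were called, 8.86% higher and 10.6% lower. Gata6, Gata4 and Sox17 passed the filter only through AF, so that a difference was built into their selection. Of the other 9 members 2 were lower, the factor Foxa1 and Dab2, and nothing is read from these counts against the share of all genes. Some other settings called members higher in FS. These were Lrp2 (DESeq2 Wald test, FS line 2 alone), Mttp (DESeq2 Wald test, without FS line 2 passage 13) and Cited1 (FS line 1 alone). Apob, Hnf4a, Pdgfra and, with FS line 2 alone, Cited1 were called lower in other settings. Gata6 was at 14.2, 17.1 and 22.6 CPM in AF and at 3 counts or fewer in every FS sample, which makes it at least 66.3-fold lower in FS. Sox17, a factor of primitive and definitive endoderm, was at 26.6, 23.6 and 43.0 CPM in AF and at 0 to 0.596 in FS (-7.27 ± 0.98, adjusted p = 0.000419). Gata4 was at 6.17, 15.6 and 8.35 CPM in AF and at 0 to 0.893 in FS (-5.75 ± 0.88, adjusted p = 0.000567). Both Sox17 and Gata4 were at 0 in every sample of FS line 2. Over the alternative settings their changes ran from -11.5 to -6.15 and from -9.89 to -4.66, with the call kept. Foxa1 was at 10.5, 10.7 and 15.4 CPM in AF and at 0.0804 to 2.60 in FS (-3.75 ± 0.67, adjusted p = 0.00185). No FS sample reached the lowest AF sample for these 4 factors. Dab2 was at 12.7, 18.6 and 17.7 CPM in AF and at 5.56 to 10.9 in FS, again without overlap (-0.96 ± 0.21, adjusted p = 0.00450).

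The transport genes Apob and Cubn and the factor Hnf4a were low in AF and did not pass the filter between cultures. Apob was at 1.48, 0.879 and 1.11 CPM in AF, from 10 to 12 counts per sample, and at 0 counts in all 6 FS samples. With no filter on low counts Apob and Hnf4a were called lower in FS than in AF (adjusted p = 9.12e-05 and 0.00734, edgeR). Apob was also called lower with FS line 2 alone, and without FS line 1 passage 10 or 11, FS line 2 passage 13 or any 1 AF passage. Cubn was at 0.370, 0.264 and 0.464 CPM in AF and Hnf4a at 0.493, 0.615 and 0.371. Their levels in AF lay below those of the E5.5 epiblasts, at which Gata6 and Sox17 were lower than in AF. The summed transport level without Lrp2 and Apoe was 25.9 to 32.6 CPM in AF, 21.5 to 26.3 in AFX and 18.1 to 24.1 in FS, so that AF and FS did not overlap. Without Dab2 as well they did, at 11.6 to 13.97 CPM in AF and 11.3 to 13.5 in FS. The 6 factors summed to 58.3 to 90.0 CPM in AF, 3.69 to 22.0 in AFX, 0.161 to 4.01 in FS and 26.8 to 39.8 at E5.0. The FS lines did not overlap, at 0.977 to 4.01 CPM in line 1 and 0.161 to 0.796 in line 2.

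**Figure D4:**
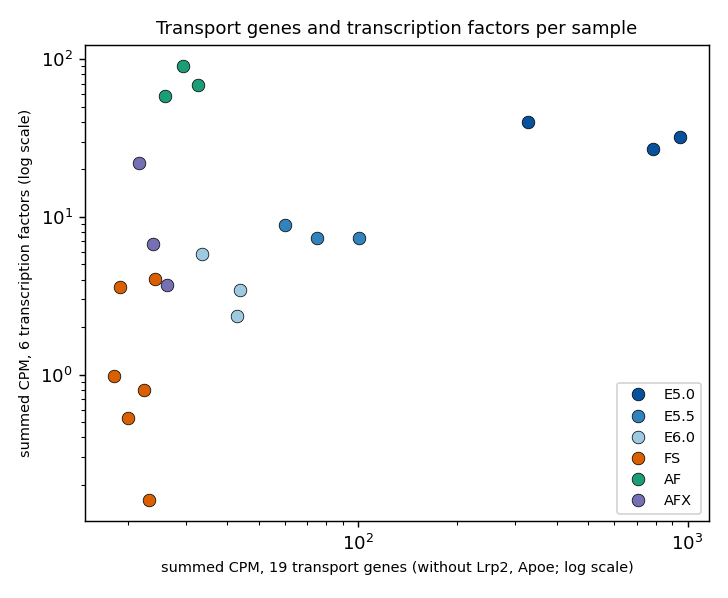
Summed CPM of the 6 transcription factors (vertical, log scale) against the summed CPM of the 19 transport genes other than Lrp2 and Apoe (horizontal, log scale), 1 point per sample. AF cultures lie high on factors (58.3 to 90.0) and low on transport (25.9 to 32.6), and E5.0 epiblasts lie far right (328.5 to 949.8).

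AFX cells were lower than AF in 3 of the 12 members, Gata4, Gata6 and Sox17, where 8.73% of all genes were called, 4.30% higher and 4.42% lower. All 3 passed the filter only through AF, so that a difference was built into their selection and nothing is read from their count against that share. In AFX, passages 14, 15 and 16 had 0.268, 0.750 and 6.23 CPM of Gata6, 0.470, 0 and 4.99 of Sox17 and 0.201, 0.250 and 1.995 of Gata4, so passage 16 was the high one for each. The log2 changes were -2.88 ± 0.76 for Gata6, -4.04 ± 1.00 for Sox17 and -3.59 ± 0.97 for Gata4 (adjusted p = 0.0336, 0.0295 and 0.0357), and 0 of the 3 were called without AF passage 14, 15 or 16 or AFX passage 15, or with no filter on low counts. Gata6 was also not called with only the 2 groups in the fit, nor Sox17 and Gata4 with the DESeq2 Wald test. Without AFX passage 14 only Gata6 was called. Without AFX passage 16 all 3 were called, and the changes were -5.25 for Gata6, -6.69 for Sox17 and -5.46 for Gata4. FS cells were lower than AFX in Gata6, at least 8.93-fold, and Foxa1 (-2.64 ± 0.69, adjusted p = 0.0304), where 8.70% of genes were called, 3.78% higher and 4.92% lower. The bound for Gata6 rests on AFX passage 16 and was 1.88-fold without it, and AFX passage 14 lay within the FS range of 0 to 0.354 CPM. Neither gene was called without AFX passage 16 or with FS line 1 alone. Foxa1 was also not called without AFX passage 15 or FS line 2 passage 13 or 16, with no filter on low counts or with only the 2 groups in the fit.

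Like these factors, the marker lists of other cells given here summed higher in AF than in FS. Of all genes tested, 10.6% were called lower in FS than in AF. The list of 10 primitive streak and definitive endoderm genes summed to 744.8 to 1439 CPM in AF, to 133.9, 146.0 and 619.8 in AFX passages 14, 15 and 16, and to 32.8 to 140.2 in FS, and 7 of 9 tested were lower in FS than AF. Foxa2 was at 26.3 to 103.8 CPM in AF and 0 to 10.8 in FS. Of 7 anterior visceral endoderm genes 6 were lower in FS than AF, Cer1, a secreted Nodal antagonist, being at 208.7 to 258.1 CPM in AF and 0 to 7.05 in FS. Of 13 other extraembryonic endoderm genes tested 8 were lower and 1 higher. Foxa2, Cer1, Gsc and Eomes each stand on 2 of the lists given here, Eomes on the streak list and on that of extraembryonic ectoderm. The feeder fibroblast list summed to 217.2 to 259.1 CPM in AF and 15.4 to 44.9 in FS, and 6 of 7 tested were lower in FS than AF. In AFX passages 14, 15 and 16 this list summed to 52.3, 29.6 and 33.9 CPM, so passage 16 was not the high one. Parietal endoderm genes summed to 563.9 to 995.3 CPM in AF, 363.2 to 427.4 in AFX and 307.5 to 409.8 in FS, with 6 of 10 lower in FS than AF. Extraembryonic ectoderm genes summed to 89.1 to 184.6 CPM in AF and 45.9 to 74.7 in FS, with 4 of 5 lower. The part of these cell types in the factor levels was not tested.

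FS lines 1 and 2 differed in 1 of 12 members, where 3.85% of all genes were called, 2.65% higher and 1.20% lower in line 2. Cited1 was at 19.9, 20.9 and 20.3 CPM in line 1 and at 0.402, 0.316 and 0.341 in line 2, a log2 difference of -5.82 ± 0.50 (adjusted p = 4.19e-06). The lines did not overlap, and each line was narrow. Cited1 lies on the X chromosome (chrX:102247381-102252181), and the lines also differ in Xist, at 271.5 to 720.3 CPM in line 1 and 0.241 to 0.949 in line 2, and in Y-linked Ddx3y, at 0.0814 to 0.354 and 76.3 to 95.9. The part of this difference in Cited1 was not tested. The mean of Cited1 over all FS samples therefore stands for neither line, and the higher level in FS than at E6.0 was not called in line 2 alone or with only the 2 groups in the fit.

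**Figure D5:**
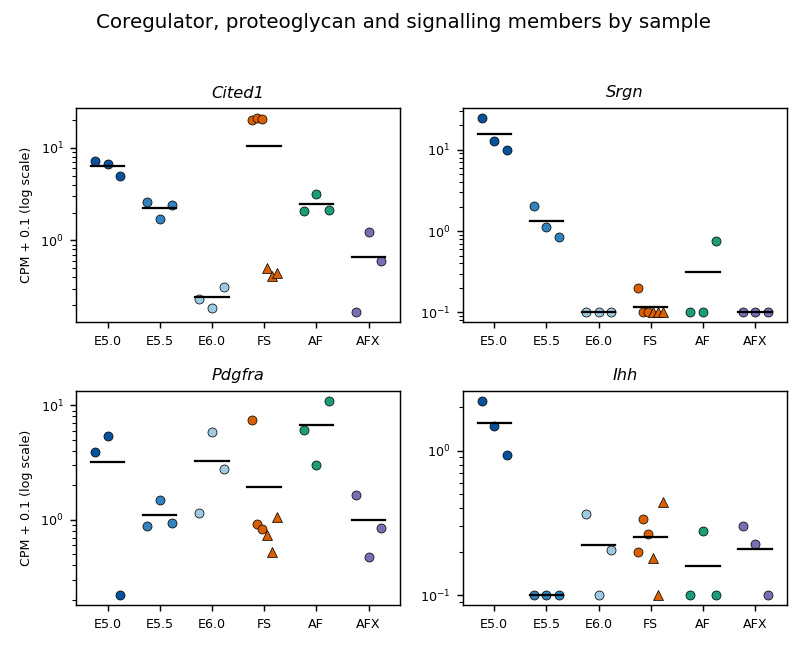
CPM plus 0.1 on a log scale for Cited1, Srgn, Pdgfra and Ihh in each sample, with triangles for FS line 2. FS line 1 lies at 19.9 to 20.9 CPM of Cited1 and line 2 at 0.316 to 0.402, and Srgn is at 0 in the 3 E6.0 epiblasts.

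As a description over the 9 epiblasts, the genes outside the module whose log2 CPM followed the mean of the 13 tested transport members most closely were Lactb2 (Pearson r = 0.985), Abcc5 (0.979), Meioc (0.976), Zp3 (0.971), Slc25a12 (0.966) and Rnf125 (0.965), besides 4 members of a multigene family whose reads may be shared. For the mean of 5 tested transcription factors the closest were Scd2 (0.977) and Ttn (0.976). The 9 points fall into 3 stages, so any gene that fell with stage in this way would stand high on the list.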

How the data were processed

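The deposited table holds raw read counts per gene that the authors made, unnormalised by its values, for 33861 genes in 21 samples, with 0 columns left unmapped. Per the submitters' processing notes, Trim Galore, TopHat2 2.1.0, featureCounts 1.5.0 and the mm10 build were used. The annotation and the strand setting are not given in the sources used here. RNA was total RNA prepared with the PicoPure kit, from 1000 cells per cultured sample or from single epiblasts, per the labels' protocols. Positions and exon lengths were taken from GENCODE M21 (GRCm38), matched by gene identifier, and promoter windows from RefSeq (GRCm38.p6). A further core searched in these windows is not reported here.

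Counts were tested in R 4.3.3 with edgeR 4.0.16 (filterByExpr by group, TMM, robust quasi-likelihood fits, two-sided F-tests, Benjamini-Hochberg over all genes tested, adjusted p under 0.05), after the script had been tested on simulated data. Epiblast comparisons used the 9 epiblasts, culture comparisons the 12 cultured samples (FS split by line for the line comparison) and FS against epiblasts all 21 samples. Where every sample of a group had at most 3 counts, a bound against 3 counts per sample replaces the fold change. Such floors cover counting error only. Totals ran from 5827093 to 15916800 counts per sample. Alternatives were other normalisation (DESeq2 1.42.0 size factors), the DESeq2 Wald test, other filters, fits of the compared groups alone, single FS lines, a replicate block and leaving out each sample. No sequencing batch is given in the labels.

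All 31 members are named, whatever their result, and outside them genes of the marker lists on which a result turns. The rule also took the 10 genes most correlated over the epiblasts with the mean of the transport genes and the 10 with that of the transcription factors. Of these, 6 and 2 are named, a choice made after their values were seen. The members and the lists were chosen with earlier results of these data known. The list genes Spp2, Apoc3, Apoh, Prl8a2, Prl3c1, Hbb-bs and S100a4 were not analysed here.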

Additional observations from a re-analysis of the deposited data

Results flagged for a closer look

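Among the 6 FS samples, a single sample stood apart in 3 of 16 members that could be tested this way. The test flags about 1 in 20 groups by chance where values are normally distributed in 1 population. Here several values lie at or near 0 counts and 2 FS lines are pooled, so that rate need not hold. No excess is read from 3 of 16. Apoa1 was at 0.708 CPM in line 1 passage 11 and at 0 to 0.244 in the other 5. Gata4 was at 0.893 CPM in line 1 passage 10 and at 0 to 0.163 in the others. Pdgfra was at 7.34 CPM in line 1 passage 10 and at 0.422 to 0.967 in the others, and the same sample carried 30.5 CPM of T, a primitive streak factor. Cited1 differed between the FS lines by -5.82 on the log2 scale (line 2 minus line 1), so that line 1 lay above AF, which was at 1.97 to 3.08 CPM, and line 2 below it.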

How the results depend on the processing

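Counts of members called changed as follows, and the causes were not tested except that a stricter filter tests fewer genes. With a mean of at least 5 CPM required, 8 members were called for E5.5 against E5.0 (13 as reported), 1 for E6.0 against E5.5 (4), 10 for E6.0 against E5.0 (18), 6, 5 and 5 for FS against E5.0, E5.5 and E6.0 (18, 15 and 10). With the DESeq2 Wald test, 8 were called for E6.0 against E5.5 and 2 for FS line 2 against line 1 (1 as reported). With no filter on low counts, 0 were called for AFX against AF (3 as reported) and 6 between the FS lines. With only the 2 groups compared in the fit, 0 were called for FS against AFX (2 as reported) and 5 for FS against E6.0. With FS line 1 alone neither of the 2 members reported against AFX was called, and Cited1 was called, higher in FS. With FS line 2 alone 4 were called against AFX, both reported members included, and 9 against AF (5 as reported). With the FS lines as separate groups, an alternative chosen after seeing the data, 5 were called for AFX against AF. Leaving out 1 sample at a time gave 8 to 12 members for E5.5 against E5.0, 3 to 4 for E6.0 against E5.5, 16 to 18 for E6.0 against E5.0, 5 to 7 for FS against AF, 0 to 4 for FS against AFX, 0 to 3 for AFX against AF, 1 to 2 between the FS lines, and 17 to 20, 13 to 15 and 8 to 13 for FS against E5.0, E5.5 and E6.0. Among 1212 refitted values of called single members, 113 lost the call and 0 changed sign. With plain library totals 4 of 186 group means moved by more than 1 SD.

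Same-numbered samples did not deviate together (correlations of their deviations from -0.223 to 0.329), so the numbers are not taken to pair samples. With a replicate block of passage number, 5 members were called for AFX against AF. With a replicate block of embryo number, 9, 6 and 16 were called for E5.5 against E5.0, E6.0 against E5.5 and E6.0 against E5.0, and over all genes the first count went from 971 to 421. Over all genes, the count for E5.5 against E5.0 was 1590 with DESeq2, 1659 without a filter and 453 with only the 2 groups, and that for E6.0 against E5.5, 631 as reported, was 1075, 1107 and 1445. For the FS lines it was 618 as reported and 1099, 1298 and 1045, and for AFX against AF 1401 and, with the passage block, 907. Levels at or under 3 counts, 0.171 to 0.589 CPM by sample, were not told from 0 at this depth.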
